A study of Mus musculus with 2 samples.

Results

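The microRNAs described here lie within Rtl1, a retrotransposon-derived gene of the imprinted Dlk1-Dio3 domain on mouse chromosome 12. They are Mir127, Mir136, Mir431, Mir433, Mir434 and Mir3071, 6 of the 2202 microRNA genes counted, and were found by matching each Ensembl identifier to its symbol in the GENCODE vM21 annotation. RNA below 30 nt was sequenced from the gastrocnemius, a muscle of the calf, of B6CASTF1/J males aged 14 days, the first-generation cross of C57BL/6 and CAST/EiJ mice. There was 1 group of 2 biological replicates with 1 library each, both under the same donor identifier and both described as males in the plural, so the labels do not settle whether a replicate is a pool of animals. No second tissue, age, genotype or treatment was measured. The question open to this design is how many reads each microRNA gene gives in growing muscle and how far the replicates differ.

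Dlk1-Dio3 is expressed by parent of origin. The protein-coding genes Dlk1, Rtl1 and Dio3 are transcribed from the paternal chromosome, and the noncoding transcripts Meg3, Rian and Mirg, with the microRNAs and small nucleolar RNAs along them, from the maternal one. Rtl1 has a role in the placenta and in fetal and newborn muscle, and the microRNAs made from the transcript opposite to it pair perfectly with its messenger RNA and can direct its cleavage. By strain nomenclature the maternal parent is written first, so the maternal allele in this cross would be that of C57BL/6, the strain of the reference genome. The counts do not separate the alleles.

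MicroRNAs bind their targets mainly through the seed, bases 2 to 8 from the 5′ end. The mature sequences of the 4 most abundant hairpins are shown with the seed in capitals because those bases set which messenger RNAs each can recognise. They were taken from RefSeq on build GRCm38.p6, and all 6 genes were matched there.
miR-127-5p: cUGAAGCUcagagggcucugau
miR-127-3p: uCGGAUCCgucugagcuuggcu
miR-431-5p: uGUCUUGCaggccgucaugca
miR-431-3p: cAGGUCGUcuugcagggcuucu
miR-434-5p: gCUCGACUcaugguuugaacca
miR-434-3p: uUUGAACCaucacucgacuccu
miR-433-5p: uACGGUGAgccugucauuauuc
miR-433-3p: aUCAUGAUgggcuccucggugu

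The 6 hairpins have 12 annotated mature sequences with 12 different seeds, and none of these seeds was found in another of the 1679 mature sequences of the RefSeq table. A seed found once was not unusual there, since 72.1% of the mature sequences had one. Thus, although the hairpins lie in 1 short stretch, they do not form a seed family, unlike clusters that encode copies of 1 microRNA. Each of the 12 mature sequences was found once in the Rtl1 transcript, 10 as the reverse complement and 2, those of Mir3071, as the same strand. The Rtl1 stretch that pairs with miR-127-3p spans bases 2495 to 2516 of the coding sequence, codons 832 to 839, and is shown with the bases facing the seed in capitals.
Rtl1 site of miR-127-3p: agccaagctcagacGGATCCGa

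On build mm10, Rtl1 occupies chr12:109589193-109600330 on the minus strand (ENSMUSG00000085925.3), and its coding sequence of 1744 codons lies wholly in exon 2. All 6 hairpins fall inside that coding sequence, over 4951 bases. Counted from the start codon, Mir136 faces codons 6 to 26 (chr12:109595327-109595388), Mir434 codons 269 to 300 (chr12:109594506-109594599), Mir127 codons 830 to 853 (chr12:109592846-109592915), Mir433 codons 1189 to 1230 (chr12:109591715-109591838) and Mir431 codons 1623 to 1653 (chr12:109590447-109590537). These 5 are annotated on the plus strand and are antisense to Rtl1. Mir3071 (chr12:109595318-109595397) is annotated on the minus strand, the strand of Rtl1 itself, over codons 3 to 29, so the name "antisense to Rtl1" does not hold for it. It is the antisense partner of Mir136, whose hairpin lies wholly within its own over 62 bases.

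**Figure D1:**
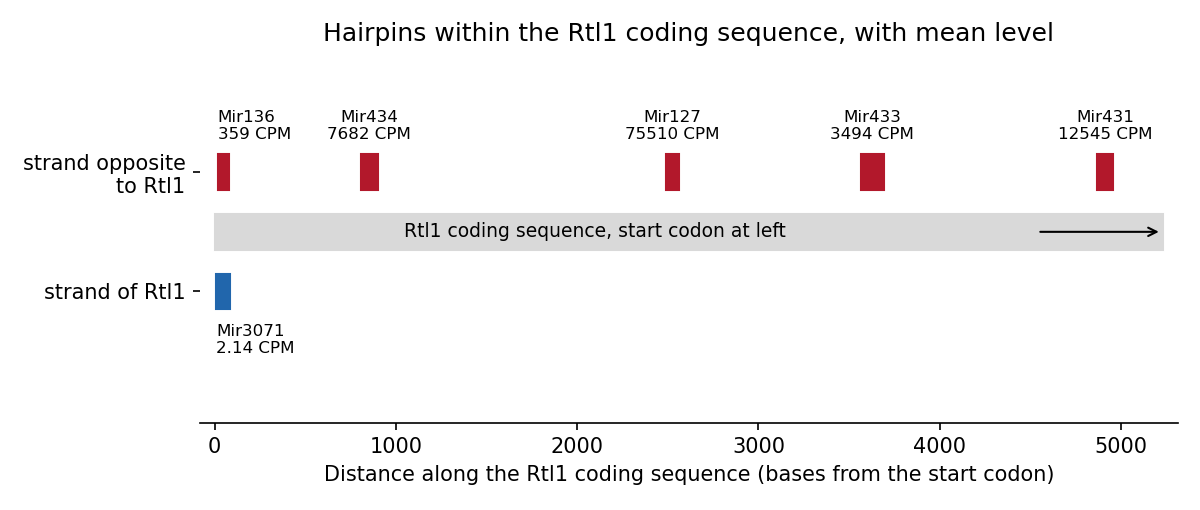
Positions of the 6 hairpins, to scale, along the Rtl1 coding sequence (horizontal axis, bases from the start codon), with hairpins on the opposite strand above the grey bar, the hairpin on the strand of Rtl1 below it, and mean CPM over the 2 libraries beside each name. Mir127, the most abundant at 75510 CPM, lies near the middle, and Mir136 and Mir3071 share the bases next to the start codon.

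Together the 6 genes made up 9.83% of assigned counts in replicate 1 and 10.1% in replicate 2, with 95% Wilson intervals of 9.79 to 9.86% and of 10.05 to 10.13%, a mean of 9.96% ± 0.186 (SD, n = 2). Levels are CPM, the own-strand count of a gene scaled to a library of 1e+06 counts assigned to microRNA genes. The libraries held 2743657 and 2211254 such counts in replicates 1 and 2, so the intervals are narrow. They cover counting error within 1 library only. They do not allow for PCR, which can copy 1 molecule into several reads. Whether different sequences are read with equal efficiency was not tested, so ratios between genes compare read counts. A hairpin's count sums its arms, so a level cannot be given to the 5′ or the 3′ mature sequence.

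Mir127 carried most of that total. It had 202006 counts in replicate 1 and 171135 in replicate 2, which is 73627 and 77393 CPM and a mean of 75510 CPM ± 2663 (SD, n = 2). Its share of the 6 genes' counts was 75.8% ± 1.26. The gene (ENSMUSG00000070076.2) ranked 3 among the 2202 genes and first in the whole domain, and miR-127 has been linked to differentiation of muscle satellite cells in mice. In both libraries Mir127 stood above the skeletal muscle microRNA Mir206, at 68288 and 67909 CPM, without overlap. Against the endothelial Mir126a, at 98087 and 80432 CPM, Mir127 was lower, also without overlap. Ranks rest on reads that align to 1 place, so microRNAs with copies at several loci may rank too low.

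Mir431 (ENSMUSG00000070080.1) came next, at 13336 and 11754 CPM in replicates 1 and 2, a mean of 12545 CPM ± 1119. The microRNA is known to target Pax7, a transcription factor of satellite cells, in mouse muscle. At rank 22, its values overlapped those of 3 of the 4 genes nearest in rank, Mir22 (13670 and 12284 CPM), Mir10b (14103 and 11018 CPM) and Mir139 (10873 and 12458 CPM). The fourth, Mir30d, was lower without overlap, at 10033 and 10104 CPM. Mir431 stood at 16.7% ± 2.07 of Mir127.

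Mir434 (ENSMUSG00000070133.1) stood at 7386 and 7979 CPM in replicates 1 and 2, a mean of 7682 CPM ± 419 at rank 27. It stood at 10.2% ± 0.197 of Mir127, a ratio that, in proportion to its size, varied less between the libraries than those of Mir431, Mir433 and Mir136. None of the 2 genes above it (Mir541, also of Dlk1-Dio3, and Mir30a) or the 2 below it (Mir382 of the same domain and Mir744) overlapped its values. In mouse muscle miR-434 has been studied in ageing and apoptosis.

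Mir433 (ENSMUSG00000070072.1) reached 3524 and 3465 CPM in replicates 1 and 2, a mean of 3494 CPM ± 42.1 at rank 38, and was 4.63% ± 0.219 of Mir127. Its neighbour in rank was Mir337, at 3191 and 3693 CPM, the most abundant microRNA of the Meg3-proximal stretch, with values on either side of those of Mir433. Mirlet7f-2 (3346 and 3923 CPM) and Mir30e (3812 and 3049 CPM) overlapped it too, while Mir214, at 4738 and 3708 CPM, was higher in both libraries without overlap.

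Mir136 (ENSMUSG00000104858.1) was far lower than the other 4 on its strand. It had 1110 counts in replicate 1 and 692 in replicate 2, which is 405 and 313 CPM and a mean of 359 CPM ± 64.8 at rank 116. Mir433 was 9.89 ± 1.67 times Mir136, the widest step between neighbours in the order of the 5 antisense hairpins, and Mir127 was 5.52 times Mir431 in replicate 1 and 6.58 times in replicate 2. The values of Mir451a, Mir338, Mir155 and Mir25, the genes next to Mir136 in rank, all overlapped its own.

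The order Mir127, Mir431, Mir434, Mir433, Mir136, Mir3071 was the same in both libraries, and no adjacent pair overlapped. The narrowest step was from Mir431 to Mir434, a ratio of 1.81 in replicate 1 and 1.47 in replicate 2. With 2 values against 2 the smallest two-sided p of an exact permutation test is 0.333, so no test was run on these steps. The order does not follow position along Rtl1, since the lowest antisense hairpin lies at the start codon, the highest near the middle and the next highest near the stop codon.

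**Figure D2:**
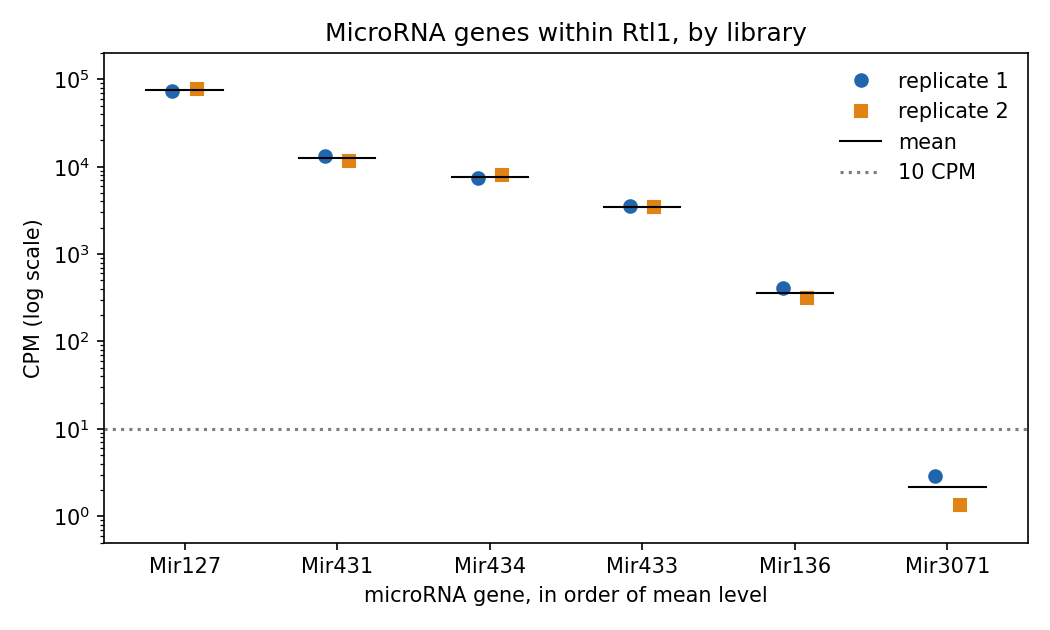
CPM on a log scale (vertical axis) of the 6 microRNA genes (horizontal axis, in order of mean level) in replicate 1 (circles) and replicate 2 (squares), with a bar at the mean and a dotted line at 10 CPM. The levels run from 75510 CPM for Mir127 to 2.14 CPM for Mir3071, and the libraries lie close together except for Mir136 and Mir3071.

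Mir3071 (ENSMUSG00000070129.2) was the 1 gene of the 6 that did not reach 10 CPM in both libraries. It had 8 counts in replicate 1 and 3 in replicate 2, or 2.92 and 1.36 CPM, and the count in replicate 2 equals the 3 counts that a gene with none could still hold. All of these reads fall on the strand opposite to Mir136. Of the counts of both hairpins, they made up 0.716% in replicate 1, with a 95% Wilson interval of 0.363 to 1.41%. In replicate 2 they made up 0.432%, with an interval of 0.147 to 1.26%. Because the genes overlap, a read there counts as ambiguous when strand is ignored, and both then drop to 0.

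The arms of the pair face each other almost base for base, shown here with the bases that both cover in capitals. miR-136-5p and miR-3071-3p share 20 positions, and miR-136-3p and miR-3071-5p share 19.
miR-136-5p: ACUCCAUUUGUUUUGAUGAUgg
miR-3071-3p: AUCAUCAAAACAAAUGGAGUcc
miR-136-3p: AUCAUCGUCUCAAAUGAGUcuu
miR-3071-5p: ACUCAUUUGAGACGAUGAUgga
Since the sequences of Mir3071 are identical to Rtl1 messenger RNA over these bases, its 8 and 3 reads cannot be told apart from short fragments of Rtl1 itself.

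Other microRNA genes with a partner on the opposite strand were mostly as one-sided. Of 32 such pairs in the table, 22 had at least 100 counts in each library, and 14 of those had no count at all for the lower partner. Mir136 with Mir3071 ranked 4 by the share of the lower partner. Above that pair were Mir24-1 with Mir3074-1, Mir486 with Mir3107, and Mir337 with Mir3544 (69 and 32 counts of Mir3544). Reads at several loci are in no count. Where the higher partner has copies, as Mir24-1 does, the share of the lower partner may therefore be too high. Opposite the remaining hairpins almost nothing was counted, with 0 reads in either library opposite Mir127, Mir431 and Mir433. For Mir127, 0 reads allow an opposite-strand share of up to 0.00149% of its own count in replicate 1 and 0.00175% in replicate 2.

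A further hairpin, Mir432, is annotated on the plus strand between Mir434 and Mir136 within Rtl1, and was at 0 counts throughout. Its level from reads that align to 1 place could be at most 1.09 CPM in replicate 1 and 1.36 CPM in replicate 2. Whether its sequence matches other places was not checked. Mir432 is not among the 6 and was singled out after its value was seen. Of the 12 mature sequences of the 6 genes, 8 had no stretch of 18 bases, on either strand, in any annotated transcript other than their own hairpin and Rtl1. The other 4 were those of Mir136 and Mir3071, which match each other. Reads that align to more than 1 place are left out of every gene's count, and were 44.0% of reads for replicate 1, against 52.1% for replicate 2. Places outside annotated transcripts were not searched here.

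Within Dlk1-Dio3 the genes inside Rtl1 had a higher median level than the lists on either side. From the start of Dlk1 to the end of Dio3 the table has 67 microRNA genes, which together held 24.5% ± 0.669 of counts, and the 6 genes within Rtl1 held 39.4% of those in replicate 1 and 42.0% in replicate 2. The list of 38 genes along Mirg held 55.6% and 52.8%, led by Mir411 at 55294 CPM ± 6202. The Meg3-proximal list of 9 genes held 4.46% and 4.71%, led by Mir337 at 3442 CPM ± 355. The median level was 5588 CPM over the 6 genes within Rtl1, 506 CPM over the Mirg list and 802 CPM over the Meg3-proximal list. With Mir432, the further hairpin in Rtl1 at 0 counts, the median inside Rtl1 was 3494 CPM over 7 genes. These medians describe the levels, and no test was made of them.

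In the order of the domain Mir127 was at place 1, Mir431 at 5, Mir434 at 7 and Mir433 at 10. Mir411, Mir379 and Mir487b of the Mirg list stood between Mir127 and Mir431. Read counts changed sharply over short distances. Mir433 and Mir127 are 1007 bases apart, with Mir433 at 4.63% of Mir127. Mir434 and Mir3071 are 718 bases apart but on opposite strands, so that pair does not compare levels along 1 strand.

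**Figure D3:**
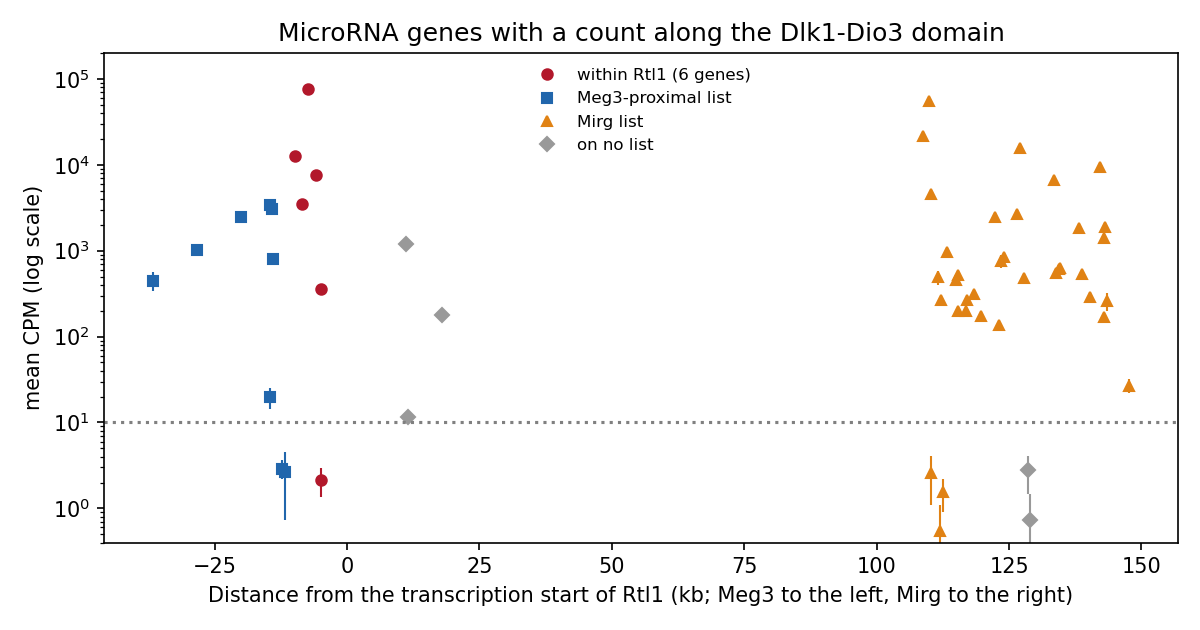
Mean CPM over 2 libraries on a log scale (vertical axis) of microRNA genes with a count against distance from the transcription start of Rtl1 (horizontal axis, kb), marked by list, with vertical lines joining the values of both libraries (ending at the axis where a value is 0) and a dotted line at 10 CPM. Genes with no count, and Mir1247, which lies far to the right, are not drawn. The group within Rtl1 holds the highest point, Mir127 at 75510 CPM, above the highest of the Mirg list, Mir411 at 55294 CPM.

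The tissue label was checked against marker microRNAs. The skeletal muscle list summed to 69535 and 69214 CPM in replicates 1 and 2, of which Mir206 alone made up 98.2% and 98.1%. Reads that align to more than 1 place are in no count, so list genes that come in copies can be undercounted. The sum may then be too low, and the share of Mir206 too high. All 9 genes of that list were detected, 7 of them at 10 CPM or above in each library. The endothelial Mir126a was at 98087 and 80432 CPM, the smooth muscle list at 36704 and 34920 CPM, nearly all of it Mir143, and the connective tissue list at 6269 and 5145 CPM. The leukocyte list summed to 977 and 1048 CPM, the erythroid list to 384 and 571 CPM, and the glia list to 363 and 396 CPM. The neuron list summed to 52.1 and 133 CPM with 5 of 9 genes at 0, among them all 3 Mir124a genes. Genes that come in copies, as the Mir124a genes do, can be at 0 because reads at several loci are left out. Their counts of 0 therefore do not show that the microRNA was absent. How far cells other than muscle fibres contribute to the microRNAs within Rtl1 was not tested, and in whole tissue fewer cells of a type and less RNA per cell cannot be told apart.

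The replicates were compared gene by gene over the 258 genes that reached 10 CPM in each library, by a two-sided exact binomial test of the counts with Benjamini-Hochberg adjustment at 0.05. That test asks whether these libraries differ beyond counting error, which at such depth it finds for 50.8% of all genes tested. All 5 antisense genes passed, 3 higher in replicate 1 (31.8% of all genes) and 2 lower (19% of all genes). Log2 ratios are replicate 1 over replicate 2 after scaling of library sizes by the trimmed mean of M-values (TMM), on log2(CPM + 1).

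Mir136 had the largest ratio of the 5, 0.42 (exact binomial test, adjusted p = 7.61e-09), and 84.9% of the tested genes had a smaller one in size. Mir431 was also higher in replicate 1, by 0.23 (exact binomial test, adjusted p = 2.19e-84). The ratio of Mir433, 0.07 (exact binomial test, adjusted p = 0.00323), did not hold when the library sizes came from total counts, where it was 0.02 with an adjusted p of 0.381. Mir127 at −0.03 (exact binomial test, adjusted p = 3.69e-07) and Mir434 at −0.06 (exact binomial test, adjusted p = 4.49e-05) were lower in replicate 1. With total counts the split over all genes was 66 higher and 67 lower in replicate 1, against 82 and 49 with TMM.

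The 5 genes were also set against the spread between the libraries rather than counting error. In edgeR's exact test with a common biological coefficient of variation of 12.8%, 0 of the 5 passed, with adjusted p-values of 0.95 for Mir136 and 0.995 for the others, and 3 of the 258 genes passed (15 at an unadjusted p under 0.05). That coefficient was estimated from these same 2 libraries, so it already holds the differences under test. The test therefore cannot show that the 5 genes are alike in both libraries. On CPM without TMM scaling, the SD as a percent of the mean was 3.53% for Mir127, 1.21% for Mir433 and 5.46% for Mir434. It was 8.92% for Mir431 and 18.1% for Mir136, against a median of 9.08% over the 258 genes. With TMM scaling the log2 ratio was smaller in size for Mir127 (−0.03) than for Mir433 (0.07), so their order depends on the scaling. The median log2 ratio of the 5 was 0.07, against 0.16 for the 33 tested genes of the Mirg list, 0.14 for the 7 of the Meg3-proximal list and 0.04 for all 258.

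**Figure D4:**
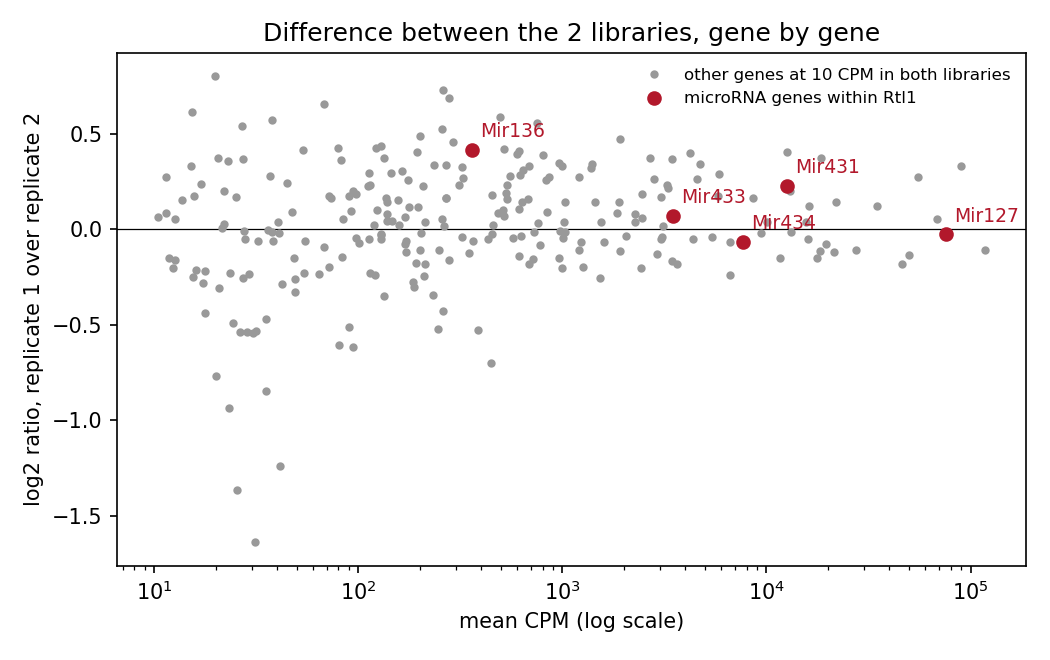
Log2 ratio of replicate 1 over replicate 2 (vertical axis) against mean CPM on a log scale (horizontal axis) for the 258 genes that reached 10 CPM in each library, with the 5 antisense microRNA genes of Rtl1 in red. Mir127 and Mir434 lie at −0.03 and −0.06, and Mir136 at 0.42 is the farthest of the 5 from 0.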

How the data were processed

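Small RNA from gastrocnemius of 2 biological replicates was counted per microRNA gene. The values the authors deposited are whole-number read counts, 1 library per table, with columns for either strand, the gene's own strand and the opposite strand. Per the notes deposited with the tables, they were made on build mm10 with annotation M21, while the aligner and counter are not given in the sources used here. The tables do not name their columns, and the strand of each was read from the values at genes that overlap on opposite strands. The own-strand column was used. The 4 lines that name no gene were left out of library sizes, and all 2202 identifiers were found in GENCODE vM21.

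CPM, Wilson intervals (95%), ratios and SDs were computed from the counts in Python 3.11.15 with scipy 1.17.1. TMM sizes over all gene rows and the exact test with an intercept-only dispersion came from edgeR 4.0.16 in R 4.3.3, and alternative sizes from DESeq2 1.42.0. The gene-by-gene binomial comparison was checked on simulated counts that held counting error only, without TMM scaling. That check does not cover the spread between the real libraries. Hairpins were folded with RNAfold 2.7.2, and sequences were matched to the vM21 transcripts.

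The 6 genes, the lists and the tests were chosen with earlier results of these data known. Genes named besides the 6 are the 2 nearest above and below each in rank, any gene that overlaps 1 of them, the leading genes of the Meg3-proximal and Mirg lists, and markers by their summed level. Mir432, Mir379, Mir487b, the other opposite-strand pairs and the 3 Mir124a genes were named after their values were seen. The labels call the libraries biological replicates but give both the same donor identifier. Whether the replicates are separate animals is thus not settled, and their spread may be partly technical.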

Additional observations from a re-analysis of the deposited data

Results flagged for a closer look

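Reads on the strand opposite Mir434, which belong to no annotated microRNA gene, numbered 4 in replicate 1, above the limit of 3 counts set for a count of 0, and 1 in replicate 2, below it. They are 0.0197% of the counts over that hairpin in replicate 1 and 0.00567% in replicate 2, and they lie on the strand of Rtl1. What they come from was not tested.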

How the results depend on the processing

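The share of counts held by the 6 genes was 9.83% and 10.1% with each library alone, 3.60% with reads at several loci added to the denominator, 11.3% without Mir378a, the most abundant gene, and 12.9% with either strand counted. Under the last setting reads over hairpins that overlap on opposite strands count as ambiguous, 6.44% of reads in replicate 1 and 6.21% in replicate 2. Mir378a and Mir126a, the most abundant genes, have such partners, so their reads can leave the denominator. Mir136 and Mir3071 drop to 0, and the share of Dlk1-Dio3 counts is 42.5% against 40.7%. The order of the other 4 genes and their ratios to Mir127 moved by less than 1 SD there. In the main setting 5 antisense genes passed the exact binomial test, as did 50.8% of all genes tested. With sizes from total counts, from DESeq2 or from TMM over the genes at 10 CPM only, 4 passed, each time without Mir433. The last of these settings was chosen after seeing the data. Over all genes 51.6%, 52.3% and 51.9% passed with those sizes. With edgeR's exact test 0 antisense genes passed, against 1.16% of all genes. Filters at any count and at 100 CPM gave 5, against 20.5% and 64.0% of all genes tested. The signs of all 5 log2 ratios were the same in every setting in which they were computed. No paired analysis was possible because there is 1 group. Depth limits Mir3071, at 8 and 3 counts. Reads at several loci outnumber the assigned ones in both libraries and are in no count, so CPM here is relative to assigned microRNA counts.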

Other observations

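The hairpins of Mir434 and Mir431 repeat parts of their own sequence. In Mir434 the longest stretch found more than once in the hairpin is 13 bases, and its arms share 9 bases in the same orientation, uuugaacca. In Mir431 the arms share 10, gucuugcagg, which in miR-431-5p covers the seed. In the other 4 hairpins the longest repeat is 5 or 6 bases. Predicted minimum free energies were −44.8 kcal/mol for Mir433 (124 bases), −43.4 for Mir431 (91), −37.4 for Mir434 (94), −35.1 for Mir127 (70), −34.8 for Mir3071 (80) and −28.2 for Mir136 (62). Mir3071, the lower partner by counts, thus has a lower predicted energy than Mir136 in a hairpin annotated 18 bases longer.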
